A study of Mus musculus with 13 samples.

Results

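PDGFB tumors were set against RAS tumors, 2 kinds of mouse glioblastoma that differ in the oncogene that started them, across every gene row of the deposited count table. The comparison took 10 of the 13 libraries of the series, chosen by their titles: 5 PDGFB tumors and 5 RAS tumors, each from a separate mouse per the labels. Both kinds arose in motor cortex after infection with a lentivirus. The mice were CNP-Cre, in which Cre recombinase is made from Cnp, a gene of the oligodendrocyte lineage. The PDGFB virus (genotype PDGFB-shP53) carried PDGFB with a short hairpin RNA against p53, and the RAS virus (HrasV12-shp53) carried HRasV12, an HRAS that stays active, with the same kind of hairpin. The hairpin and the GFP mark are thus shared by both groups. Tissue was taken at the clinical endpoint, and the labels give neither the time after injection nor an age. The labelled cell type is tumor cells, but GFP-positive tissue was taken, and markers of macrophages, vessels and neurons were measured in all 10 libraries. Normal brain of wild type mice (n = 3) is given for its levels. In the test it adds to the spread, and it also enters the low-count filter and the scaling of the libraries. With it 7722 genes were tested, and 5688 with the 10 tumors alone.

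PDGFB is a secreted growth factor that binds the receptor tyrosine kinases PDGFRA and PDGFRB; PDGFRA is the receptor of oligodendrocyte precursors, the dividing glial cells that express Olig2, Sox10 and the proteoglycan NG2, and PDGF keeps them dividing and undifferentiated. HRAS is a small GTPase below such receptors, and its active form drives the kinases RAF, MEK and ERK, whose output includes feedback phosphatases, EGF-family ligands and the urokinase system. In glioblastoma a proneural state rich in precursor genes and a mesenchymal state rich in matrix, adhesion and myeloid genes have been described.

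Each tumor library held 13975140 to 15453144 reads, of which 588691 to 643055 were counted for a gene (4.0% to 4.21%). The count assigned 84.5% to 87.3% of reads to no gene row. Where those reads lie was not tested, so this is not a share of reads outside genes. Rows that share exon sequence with a gene on the other strand (8931 of 55416 rows) held 84.1% of the counted tumor reads, with 146 reads per kb of exon against 9.89 for rows with no gene opposite. A symbol therefore stands for the reads deposited under that row, which can come from its antisense partner, and the partner is named in brackets as opposite. Levels are CPM, the counts of a library scaled to a fixed total of gene reads, and 1 read is 1.56 to 1.70 CPM. Fold changes and log2 differences are log2 of PDGFB over RAS, ± their standard error, so a positive value is higher in PDGFB tumors. In tissue pieces, fewer cells of a type and less RNA per cell cannot be told apart.

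The PDGFB tumors were the more alike group. In a principal component analysis of the 10 tumors the first component held 54.3% of the variance, with the PDGFB tumors at −50.3 to −40.1, RAS tumor 2 at 6.27, RAS tumor 3 at 27.3 and RAS tumors 1, 4 and 5 at 54.4 to 66.8. Correlations of log2 CPM between libraries were 0.925 to 0.948 within the PDGFB group and 0.839 to 0.946 within the RAS group. The SD of log2 CPM was larger among RAS tumors for 71.1% of the genes tested, and for 64.2% with RAS tumor 2 left out. When normal brain was included, RAS tumor 2 lay nearest to it of the 5 RAS tumors on the first component.

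**Figure D1:**
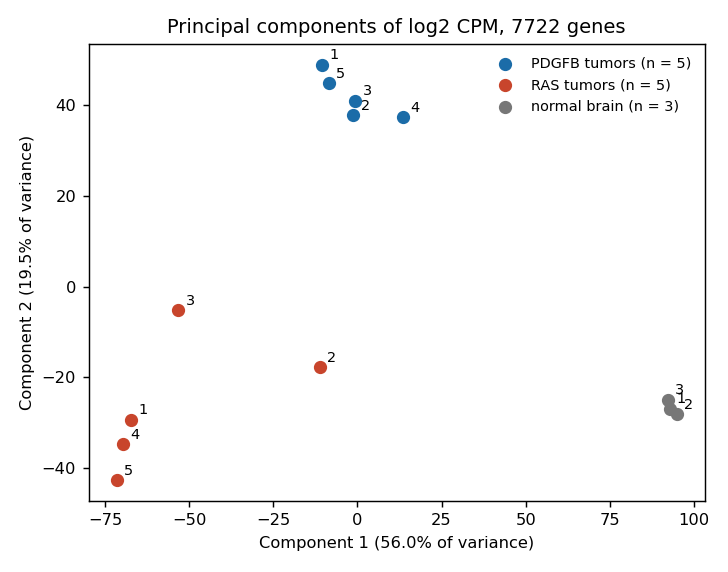
Principal components of log2 CPM over the 7722 genes tested, 1 point per library, with replicate numbers; the axes give component scores and the share of variance. PDGFB tumors sit together at 37.4 to 49.0 on component 2, RAS tumors at −42.7 to −5.23, and RAS tumor 2 lies at −11.2 on component 1 against −71.5 to −53.2 for the other 4.

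The genes of the design come first. Pdgfb (chromosome 15, 79995874 to 80014977, opposite an intron of Gm41361) was at 6.27, 34.5, 8.16, 18.2 and 13.2 CPM in PDGFB tumors 1 to 5 and at 4.91, 3.28, 1.7, 1.59 and 6.22 CPM in RAS tumors 1 to 5. PDGFB tumor 1 and RAS tumor 5 held the same number of reads and differed in CPM only through their library totals, so the groups met at the edge. Every other PDGFB tumor stood above each RAS tumor. Normal brain was at 10.2, 5.67 and 6.61 CPM, within the span of the tumors. The row was too low to pass the low-count filter and was not tested, and whether a viral transcript adds to it cannot be read from these counts. Hras was at 17.3, 6.57, 11.4, 21.5 and 26.5 CPM in PDGFB tumors and at 40.9, 19.7, 25.5, 19.1 and 14 CPM in RAS tumors. The groups overlapped and no difference was called (log2 difference −0.61 ± 0.36, adjusted p = 0.212). Trp53 (0 to 5 reads a library) and Pdgfrb, the second PDGF receptor (0 to 12), were not tested. Cnp (opposite Dnajc7) lay at 635 to 739 CPM in PDGFB and 504 to 669 CPM in RAS tumors, with log2 difference 0.14 ± 0.13, adjusted p = 0.47.

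Of 7722 genes tested with edgeR's quasi-likelihood test, 2456 (31.8%) passed an adjusted p under 0.05: 1193 (15.4%) were higher in PDGFB tumors and 1263 (16.4%) in RAS tumors. An unadjusted p under 0.05 was reached by 3276. For 1567 genes (20.3%) the CPM of the 5 and 5 tumors did not overlap, and of these 788 were called higher in PDGFB and 681 higher in RAS tumors. Large differences lay more often on the RAS side: 888 and 915 called genes differed by 2-fold or more, 261 and 344 by 4-fold, and 54 and 151 by 8-fold (PDGFB and RAS side in turn). Among rows opposite an exon 33.8% were called, and among rows with no opposite exon 28.9% (393 higher in PDGFB, 533 in RAS tumors). Without RAS tumor 2 the calls were 1542 and 1502. The median fold change over all genes tested was 0.06 on the log2 scale with composition factors and 0.17 with library totals, a shift of 0.11 against which small fold changes should be read.

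Genes of the PDGF receptor and of oligodendrocyte precursors were higher in PDGFB tumors. Of 26 markers of that cell type, 21 were tested, 17 (81.0%) were higher in PDGFB tumors and 0 in RAS tumors, with a median log2 fold change of 2.04 against 0.06 over all genes tested; 10 of the 17 have no exon opposite. The summed level of the 26 markers was 1510 to 1837 CPM in PDGFB tumors, 283 to 724 CPM in RAS tumors and 452 to 552 CPM in normal brain. RAS tumors ranged on both sides of normal brain, with tumors 2 and 3 the highest.

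Pdgfra, the receptor itself (chromosome 5, 75152292 to 75198215; opposite Gm42802 and Gm42803), was at 278, 287, 152, 200.0 and 175 CPM in PDGFB tumors and 31.1, 36.1, 76.4, 63.6 and 35.8 CPM in RAS tumors. The groups did not overlap (log2 difference 2.04 ± 0.27, adjusted p = 3.69e-05), and both lay above normal brain at 10.2, 13.2 and 13.2 CPM. Cspg4, which encodes the NG2 proteoglycan, was at 31.4, 36.1, 40.8, 24.8 and 29.8 CPM against 6.55, 18.1, 5.1, 7.95 and 3.11 CPM, with RAS tumor 2 the highest of its group (log2 difference 1.87 ± 0.40, adjusted p = 0.0018). The ligand gene Pdgfa (opposite 6330403L08Rik), whose product also binds PDGFRA, went the other way: it was at 25.1, 78.8, 26.1, 38 and 26.5 CPM in PDGFB and 128, 91.9, 121, 127 and 77.8 CPM in RAS tumors (log2 difference −1.59 ± 0.30, adjusted p = 6.58e-04). No other member of the list of 7 PDGF ligands and receptors was tested.

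Transcription factors of the lineage followed the same direction. Olig2, which specifies oligodendrocyte precursors, was at 72.2, 65.7, 68.5, 51.2 and 61.2 CPM in PDGFB tumors and 1.64, 11.5, 17, 4.77 and 4.67 CPM in RAS tumors (log2 difference 2.88 ± 0.37, adjusted p = 2.34e-05). Sox10, which is kept on as these cells mature, showed the smallest of the 17 called differences (log2 difference 0.95 ± 0.33, adjusted p = 0.038), and the call was lost without PDGFB tumor 1, 2, 3 or 4 or RAS tumor 2, 4 or 5 (adjusted p up to 0.109). Olig1 (opposite Gm15966) had a fold change of 2.66 and Nkx2-2 (opposite Nkx2-2os) one of 1.18.

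Surface and matrix proteins of precursors gave the largest difference of the list. Pcdh15, a protocadherin (chromosome 10, 73099342 to 74649737), was at 40.8, 24.6, 22.8, 18.2 and 16.5 CPM in PDGFB tumors and 0, 1.64, 1.7, 0 and 0 CPM in RAS tumors, where 2 reads were counted in all (count ratio 38.1, 95% interval 10.2 to 321; adjusted p = 4.11e-05). The receptor phosphatase Ptprz1 was at 267, 207, 196, 229.7 and 210.0 CPM against 16.4, 68.9, 69.6, 9.54 and 6.22 CPM (log2 difference 2.6 ± 0.45, adjusted p = 3.82e-04), and here RAS tumors 2 and 3 were well above the other 3. The brain proteoglycan gene Bcan and the calcium channel subunit gene Cacng4 had fold changes of 2.51 and 2.96. Vcan, a matrix proteoglycan that many glial cells make, was not called (log2 difference −0.22 ± 0.34, adjusted p = 0.648), nor were Megf11, Sox8 (opposite 2810468N07Rik) and Matn4 (opposite Rbpjl). Sox8 was called higher in PDGFB tumors with reads moved across (2.27, adjusted p = 3.96e-05) and without RAS tumor 2 (adjusted p = 0.0491). Matn4 was called on the same side with limma-voom (2.27, adjusted p = 0.0115), with no filter (adjusted p = 0.0347) and without RAS tumor 3 (adjusted p = 0.00399).

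**Figure D2:**
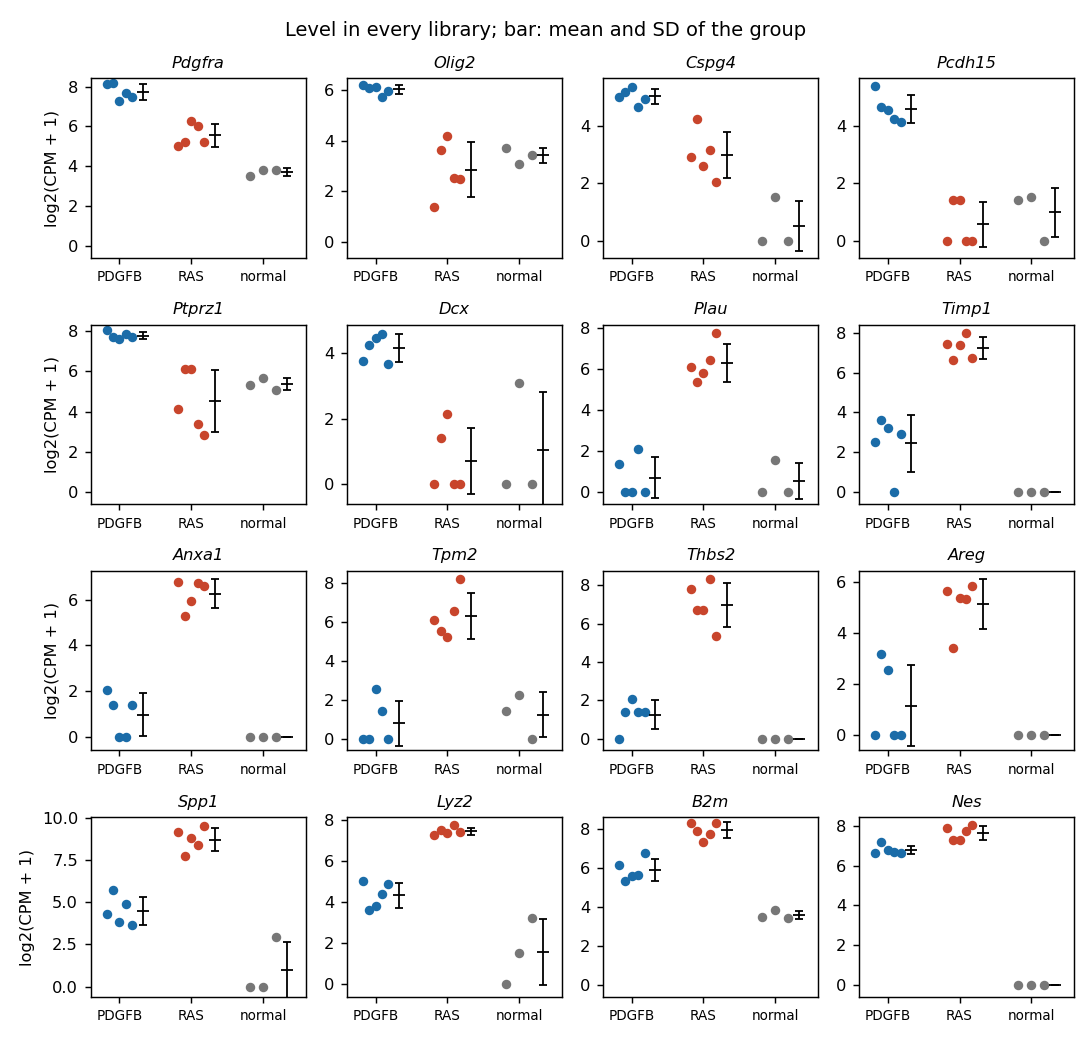
Level of 16 genes in each library as log2(CPM + 1), with the mean and SD of each group beside the points (n = 5, 5 and 3). In each of the 16 panels the 5 PDGFB tumors and the 5 RAS tumors do not overlap. The genes were picked after their values were seen, and 20.3% of all genes tested show no overlap.

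The 12 genes with the largest called differences on the PDGFB side, among rows with no exon opposite, included the precursor marker Pcdh15 and genes of other functions. Lmo3, a LIM-domain transcription cofactor, was at 23.5, 21.4, 24.5, 19.8 and 18.2 CPM in PDGFB tumors and 1.64, 0, 3.4, 0 and 0 CPM in RAS tumors (count ratio 22.1, 95% interval 7.23 to 109.8; adjusted p = 3.08e-05). Normal brain held more than either group, at 30.7, 35.9 and 39.7 CPM. The spalt-family factor Sall3 was at 43.9, 36.1, 14.7, 18.2 and 18.2 CPM against 0, 1.64, 5.1, 0 and 0 CPM (log2 difference 4.02 ± 0.70, adjusted p = 3.77e-04). Fendrr (chromosome 8, 121054882 to 121083110), a long noncoding RNA, was at 32.9, 95.3, 55.5, 36.4 and 48 CPM against 3.27, 4.92, 5.1, 1.59 and 1.56 CPM (log2 difference 3.85 ± 0.42, adjusted p = 4.24e-06), and at 6.81, 5.67 and 4.96 CPM in normal brain. Fendrr thus stood above both RAS tumors and normal brain.

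B9d1, a protein of the base of the primary cilium (chromosome 11, 61505144 to 61512931), showed little spread on the PDGFB side. It was at 84.7, 85.4, 89.7, 82.6 and 92.6 CPM in PDGFB tumors and 1.64, 14.8, 15.3, 3.18 and 1.56 CPM in RAS tumors (log2 difference 3.46 ± 0.46, adjusted p = 3.13e-05), against 3.41, 7.56 and 0 CPM in normal brain. RAS tumors 2 and 3 again stood above the others of their group. Dcx, the microtubule protein of migrating neuroblasts, was at 12.5, 18.1, 21.2, 23.1 and 11.6 CPM against 0, 1.64, 3.4, 0 and 0 CPM (count ratio 17.7, 95% interval 5.75 to 88.7; adjusted p = 0.00151). The synaptic organizer gene C1ql2, the peroxisome gene Pex11a, Rimklb, Aard and Mro had fold changes of 3.67, 3.66, 3.98, 3.56 and 3.32 (adjusted p at most 6.91e-04). All 12 rows showed no overlap of the tumor groups by the way they were chosen.

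Rows that lie opposite the exons of exactly 1 protein-coding gene come next. They were named only from 30 CPM in the higher group, against 10 CPM for the rows above. Gm12146 and Gm12144 both lie opposite Atp10b, a phospholipid transporter of the P4-ATPase family (chromosome 11); Gm12144 was at 70.6, 90.3, 57.1, 39.7 and 41.3 CPM in PDGFB tumors and 1.64, 0, 3.4, 0 and 0 CPM in RAS tumors (count ratio 61.6, 95% interval 20.7 to 301). AC154538.1 and AC154538.2 lie opposite Dscam, a cell adhesion molecule of the precursor list. The first was at 204, 153, 145, 241 and 154 CPM against 3.27, 16.4, 22.1, 3.18 and 4.67 CPM (log2 difference 4.06 ± 0.39, adjusted p = 1.57e-06), and normal brain lay between at 74.9, 79.4 and 67.8 CPM. The row named Dscam was itself higher in PDGFB tumors (log2 difference 2.78 ± 0.41, adjusted p = 8.44e-05). Gm20421 lies opposite Hes5, a Notch target of neural progenitors, and was at 207, 179, 89.7, 117 and 137 CPM against 0, 26.3, 17, 0 and 4.67 CPM (log2 difference 3.8 ± 0.55, adjusted p = 7.28e-05). It was at 0 in RAS tumors 1 and 4, while normal brain held 181, 142 and 132 CPM. A830073O21Rik, opposite Fam174b, was at 210.2, 239.8, 228, 202 and 212 CPM against 13.1, 41, 22.1, 3.18 and 10.9 CPM (log2 difference 3.49 ± 0.37, adjusted p = 3.22e-06). With the reads of such rows moved to the gene across, fold changes were 4.51 for Atp10b, 3.66 for Dscam, 3.63 for Hes5 and 3.42 for Fam174b, with adjusted p at most 5.85e-05. These values hold the reads of rows chosen for their large differences, so they are no separate support for the partner gene. The rows named Atp10b and Hes5 were themselves not tested.

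On the RAS side, genes of the matrix, of cell adhesion, of the contractile cytoskeleton and of the annexin family were higher in large numbers. The collagen and matrix list had 22 of 29 tested members higher in RAS tumors and 1 in PDGFB tumors (median −2.29). Integrins and adhesion genes numbered 16 and 2 of 23 (median −1.81), annexins and S100 proteins 9 and 0 of 10 (median −3.09), and contractile and actin-binding genes 14 and 0 of 16 (median −1.62). The share of all genes called higher in RAS tumors was 16.4%.

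**Figure D3:**
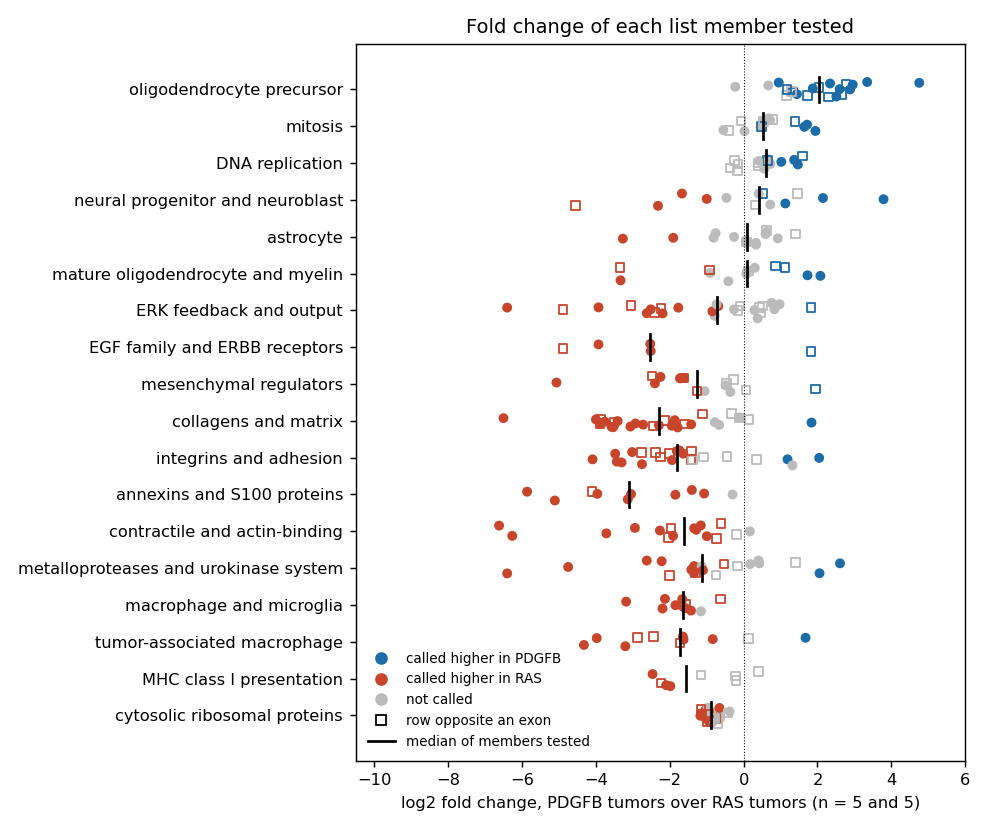
Log2 fold change, PDGFB over RAS, of each tested member of 18 gene lists; color gives the call at an adjusted p under 0.05, open squares are rows opposite an exon, and the black bar is the median. Precursor markers lie to the right (median 2.04) and annexin, matrix and contractile genes to the left, with medians of −3.09, −2.29 and −1.62.

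Among matrix proteins, Thbs2, the matricellular thrombospondin (chromosome 17, 14665500 to 14694235), was at 0, 1.64, 3.26, 1.65 and 1.65 CPM in PDGFB tumors and 219, 102, 104, 316 and 40.4 CPM in RAS tumors (log2 difference −6.5 ± 0.66, adjusted p = 4.41e-06). Fibrillar collagen genes moved with it: Col5a2 was at 0, 1.64, 1.63, 8.26 and 1.65 CPM against 62.2, 23, 25.5, 19.1 and 77.8 CPM (log2 difference −4.0 ± 0.64, adjusted p = 2.61e-04) and Col1a2 at 3.14, 1.64, 3.26, 1.65 and 14.9 CPM against 37.7, 68.9, 28.9, 49.3 and 159 CPM (log2 difference −3.89 ± 0.59, adjusted p = 1.06e-04). RAS tumor 5 was the highest library for both collagens. Fbln2, a fibulin of elastic matrix, was at 1.57, 1.64, 1.63, 0 and 3.31 CPM against 170.2, 37.8, 98.5, 92.2 and 51.3 CPM (log2 difference −5.7 ± 0.55, adjusted p = 2.92e-06), and at 0 in normal brain. Basement membrane genes Nid1 (opposite Gm48682), Lamb1 and Hspg2 had fold changes of −3.89, −3.06 and −2.29. Col11a1, a minor fibrillar collagen, was the exception and was higher in PDGFB tumors: 87.8, 269, 94.6, 66.1 and 82.7 CPM against 47.5, 36.1, 45.9, 27 and 0 CPM (log2 difference 1.84 ± 0.51, adjusted p = 0.0112). PDGFB tumor 2 stood apart for it, and without that tumor the call was lost (adjusted p = 0.0522).

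The secreted antagonist of bone morphogenetic proteins Grem1 (chromosome 2, 113746164 to 113758646) had no read in PDGFB tumors and was at 52.4, 21.3, 30.6, 70.0 and 134 CPM in RAS tumors, at least 64.1-fold higher (adjusted p = 6.01e-05). Oaf, with no read in PDGFB tumors either, was at 55.7, 31.2, 54.4, 25.4 and 45.1 CPM in RAS tumors, at least 43.2-fold higher (adjusted p = 5.68e-06). These folds are lower bounds that take 3 reads over the 5 PDGFB libraries as the floor. The secreted semaphorin genes Sema3b and Sema3f, guidance cues of axons, were at 32.7, 18.1, 17, 50.9 and 1.56 CPM and 26.2, 13.1, 30.6, 22.3 and 9.33 CPM in RAS tumors, against 0 and 1 read over all PDGFB tumors. Sema3b was at least 24.6-fold higher (adjusted p = 6.81e-04), although RAS tumor 5 held 1 read, and the count ratio of Sema3f was 61.8, 95% interval 10.7 to 2479 (adjusted p = 8.54e-05). Angptl2, a secreted angiopoietin-like protein, was at 91.7, 37.8, 25.5, 76.3 and 54.4 CPM against 1 read in PDGFB tumors (count ratio 176, 95% interval 31.2 to 7004; adjusted p = 1.36e-06). Crabp1, which binds retinoic acid in the cytosol, was at 8.18, 27.9, 51, 25.4 and 46.7 CPM, again against 1 read (count ratio 97.6, 95% interval 17.1 to 3895; adjusted p = 4.18e-05).

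Receptors for matrix followed. Itgb3, the β3 integrin subunit, was at 1.57, 0, 0, 1.65 and 3.31 CPM in PDGFB and 16.4, 14.8, 23.8, 35 and 28 CPM in RAS tumors (log2 difference −4.09 ± 0.60, adjusted p = 1.36e-04), and Itga6, the laminin receptor subunit, at 14.1, 1.64, 4.89, 6.61 and 11.6 CPM against 106, 64, 59.5, 85.9 and 96.4 CPM (log2 difference −3.48 ± 0.42, adjusted p = 1.28e-05). Itga5, which binds fibronectin, Cd44, which binds hyaluronan, and Itgb1, the common β subunit, had fold changes of −3.3, −2.75 and −1.81. On the PDGFB side stood Itgb8, a subunit that binds latent TGF-β, at 51.8, 36.1, 35.9, 26.4 and 26.5 CPM against 9.82, 13.1, 8.49, 4.77 and 3.11 CPM (log2 difference 2.05 ± 0.35, adjusted p = 3.34e-04), and Itga1, a collagen receptor subunit (log2 difference 1.19 ± 0.37, adjusted p = 0.0207). The Itga1 groups overlapped and its call was lost without PDGFB tumor 2 (adjusted p = 0.0705).

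Contractile genes were led by Cnn2, a calponin that binds actin and myosin (chromosome 10, 79988584 to 79996062), and by Tpm2, a tropomyosin. Cnn2 had 1 read in the PDGFB tumors and was at 68.8, 23, 32.3, 28.6 and 91.7 CPM in RAS tumors (count ratio 151, 95% interval 26.8 to 6020.3; adjusted p = 8.14e-06). Tpm2 was at 0, 0, 4.89, 1.65 and 0 CPM against 67.1, 44.3, 35.7, 93.8 and 286 CPM, with RAS tumor 5 the highest (log2 difference −6.26 ± 0.82, adjusted p = 2.96e-05). The nonmuscle myosin gene Myh9, the lamin gene Lmna and the filament gene Vim had fold changes of −2.94, −3.71 and −1.28. Tagln2 and Tagln (opposite Gm48529 and Pcsk7), both calponin relatives, were not called (0.17 and −0.19). With reads moved across, Tagln was called higher in RAS tumors (−2.04, adjusted p = 5.37e-04). Acta2, the smooth muscle actin, was too low to test.

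Annexins bind membranes in the presence of calcium, and S100 proteins are their frequent partners. Anxa1 (chromosome 19, 20373428 to 20390944) was at 3.14, 1.64, 0, 0 and 1.65 CPM in PDGFB tumors and 108, 37.8, 61.2, 105 and 94.9 CPM in RAS tumors (log2 difference −5.86 ± 0.52, adjusted p = 1.57e-06), and had no read in normal brain. S100a6 was at 1.57, 1.64, 3.26, 9.92 and 14.9 CPM against 244, 87, 129, 177 and 381 CPM (log2 difference −5.11 ± 0.54, adjusted p = 3.22e-06). Every RAS tumor stood above each PDGFB tumor for both genes. The partners Anxa2 (opposite Gm16144) and S100a10 had fold changes of −4.11 and −1.85, and S100a1 alone of the 10 tested was not called.

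Enzymes that cut the matrix and their inhibitors were among the RAS-high genes too: 11 of 20 tested members were higher in RAS tumors and 2 in PDGFB tumors (median −1.12). Plau, the urokinase (chromosome 14, 20836660 to 20843385), was at 1.57, 0, 0, 3.31 and 0 CPM in PDGFB tumors and 67.1, 39.4, 54.4, 84.3 and 211 CPM in RAS tumors (count ratio 95, 95% interval 32.2 to 463; adjusted p = 5.68e-06). Its receptor gene Plaur had a fold change of −2.62. Timp1, an inhibitor of metalloproteases that lies within an intron of Syn1 on the other strand, was at 4.71, 11.5, 8.16, 0 and 6.61 CPM against 172, 96.8, 168, 254 and 106 CPM (log2 difference −4.75 ± 0.45, adjusted p = 2.70e-06) and had no read in normal brain. Higher in PDGFB tumors were the membrane metalloproteases Mmp15, at 122, 135, 106, 121 and 106 CPM against 26.2, 34.5, 52.7, 11.1 and 7.78 CPM (log2 difference 2.06 ± 0.35, adjusted p = 3.40e-04), and Adam12 (log2 difference 2.61 ± 0.49, adjusted p = 6.77e-04), with no overlap for either.

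Output genes of the RAS to ERK pathway were divided. Of 26 tested, 12 were higher in RAS tumors, 1 in PDGFB tumors and 13 were not called (median −0.71). Beside Plau, described above and the steepest of the 12, EGF-family ligands were among the larger differences. Ereg, which encodes epiregulin (opposite Gm19610), was at 0, 1.64, 0, 4.96 and 1.65 CPM in PDGFB tumors and 72, 31.2, 54.4, 71.6 and 26.4 CPM in RAS tumors (log2 difference −4.89 ± 0.56, adjusted p = 1.54e-05). Areg, the amphiregulin gene, was at 0, 8.21, 4.89, 0 and 0 CPM against 49.1, 9.85, 40.8, 39.8 and 57.5 CPM, with RAS tumor 2 the lowest of its group (log2 difference −3.93 ± 0.68, adjusted p = 4.81e-04), and Hbegf had a fold change of −2.51. Neither Ereg nor Areg had a read in normal brain. Tgfa (opposite Gm43917), another ligand of the EGF receptor, was higher in PDGFB tumors at 29.8, 37.8, 17.9, 19.8 and 23.2 CPM against 0, 13.1, 18.7, 1.59 and 0 CPM (log2 difference 1.83 ± 0.62, adjusted p = 0.0311). Its groups overlapped, and leaving out PDGFB tumor 1 or 2 or RAS tumor 1, 4 or 5 lost the call (adjusted p up to 0.0759).

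The ERK phosphatases Dusp4, Dusp5 (opposite AC137853.2) and Dusp6 were higher in RAS tumors by fold changes of −2.19, −2.41 and −0.68, and so was Spred1, an inhibitor of the pathway (−0.84). Dusp6 is often used as a reporter of ERK activity, and its levels were 37.6, 36.1, 31, 34.7 and 44.7 CPM in PDGFB tumors and 57.3, 64, 59.5, 41.3 and 52.9 CPM in RAS tumors (log2 difference −0.68 ± 0.22, adjusted p = 0.0225). These ranges overlapped in that RAS tumor 4 lay below PDGFB tumor 5, and the call was lost without PDGFB tumor 3 (adjusted p = 0.0532), as was that of Spred1 without PDGFB tumor 3 or 4 (adjusted p up to 0.0615). The Dusp6 call was also lost with library totals (adjusted p = 0.0524), with no filter (adjusted p = 0.154) and with a looser filter (adjusted p = 0.0828), and the Spred1 call with library totals (adjusted p = 0.0504). The Sprouty genes Spry1 (opposite Gm42922), Spry2 and Spry4, the ETS factor genes Etv1, Etv4 and Etv5, Ccnd1 (opposite LTO1) and the immediate early gene Egr1 were not called, with fold changes of −0.78 to 0.83. With reads moved across, Spry1 was called higher in PDGFB tumors (1.31, adjusted p = 0.0106). Of 9 tested members of the AP-1 and immediate early list 1 was higher in RAS tumors, a share of 11.1% and below the background: Fosl2, at 9.41, 4.93, 14.7, 19.8 and 6.61 CPM against 47.5, 3.28, 39.1, 41.3 and 29.5 CPM, where RAS tumor 2 was the lowest of all 10 (log2 difference −1.62 ± 0.50, adjusted p = 0.0205). This call was lost with limma-voom (−1.36, adjusted p = 0.117).

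Components of the pathway differed little. Of 19 RAS genes and regulators tested, 2 (10.5%) were called, which is below the share over all genes. Mapk3, which encodes ERK1, was at 9.41, 14.8, 6.52, 16.5 and 11.6 CPM in PDGFB tumors and 36, 19.7, 34, 36.6 and 37.3 CPM in RAS tumors (log2 difference −1.58 ± 0.31, adjusted p = 0.00112). Rasa1 (opposite Ccnh), a GTPase-activating protein that turns RAS off, was also higher in RAS tumors (log2 difference −1.67 ± 0.40, adjusted p = 0.00401). Nras and Nf1, which encodes neurofibromin, another protein that turns RAS off, had fold changes of −0.24 and 0.73 and were not called.

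Promoters of the named genes with no exon opposite were read for 2 short motifs. They are shown because the RAS-high genes include contractile genes and ERK output genes, whose known regulators bind such letters: serum response factor the CArG box, and the AP-1 factors TGANTCA. Sequences came from RefSeq on GRCm38.p6, 250 bases before to 50 bases after each start, and both strands were searched. AP-1 letters were found in 7.81% of all 32851 promoters in the table, in 4.49% of those of genes tested with no exon opposite, in 4.21% of those at least 2-fold higher in PDGFB tumors and in 7.94% of those at least 2-fold higher in RAS tumors. The CArG box was found in 1.63%, 1.44%, 1.40% and 3.27% in the same order. Of the named genes with a promoter, 0 of 24 PDGFB-high genes held either motif, and of 35 RAS-high genes 2 held AP-1 letters and 1 the CArG box. The genes with AP-1 letters were Gja1 and Ifitm3, neither of them in the ERK output list. Areg of that list and the contractile gene Tpm2 held neither motif. Promoters of 1 chromosome were left out of the named genes but not of the shares given before. Plau of the ERK output list, Sall3 and Cd74 had no promoter among those read, so these counts do not cover them. Below, capitals mark the motif: the CArG box in Cnn2 (chr10:79988350-79988649, + strand), the AP-1 letters in Gja1 (chr10:56377050-56377349, + strand), and no match in Pcdh15 (chr10:73821617-73821916, + strand), the named PDGFB-high gene with the largest difference. A match is a description of letters in this window, and binding was not measured.
Cnn2: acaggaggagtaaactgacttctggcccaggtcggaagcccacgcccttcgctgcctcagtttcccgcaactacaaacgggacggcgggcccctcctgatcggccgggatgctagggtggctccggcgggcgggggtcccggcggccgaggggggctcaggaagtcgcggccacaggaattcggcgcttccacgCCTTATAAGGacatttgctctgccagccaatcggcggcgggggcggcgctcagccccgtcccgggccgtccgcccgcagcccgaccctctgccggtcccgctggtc
Gja1: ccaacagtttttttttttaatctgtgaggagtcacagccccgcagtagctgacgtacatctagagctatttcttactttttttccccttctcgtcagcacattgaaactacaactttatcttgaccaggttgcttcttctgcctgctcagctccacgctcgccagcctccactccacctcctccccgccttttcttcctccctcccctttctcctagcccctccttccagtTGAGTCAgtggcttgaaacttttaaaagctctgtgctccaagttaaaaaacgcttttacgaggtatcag
Pcdh15: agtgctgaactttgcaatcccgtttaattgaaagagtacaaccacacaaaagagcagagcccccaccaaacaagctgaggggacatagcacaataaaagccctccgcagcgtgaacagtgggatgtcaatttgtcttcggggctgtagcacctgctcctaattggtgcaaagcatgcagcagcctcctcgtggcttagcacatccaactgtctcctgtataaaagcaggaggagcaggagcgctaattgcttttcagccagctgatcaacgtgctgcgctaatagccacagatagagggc

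Pairs on opposite strands were also found on the RAS side, and the partner was named in each. Gm19610, opposite Ereg, had no read in PDGFB tumors and was at 111, 31.2, 37.4, 105 and 42 CPM in RAS tumors, at least 67.1-fold higher (adjusted p = 3.69e-05). Gm15708, opposite Baiap2l1, an adaptor between membranes and actin, was at least 40.8-fold higher at 52.4, 32.8, 34, 58.8 and 21.8 CPM (adjusted p = 1.22e-05). Gm47061 and Gm26688 lie opposite Tfap2a, an AP-2 factor of neural crest and epithelia; Gm47061 was at 3.14, 3.28, 0, 0 and 3.31 CPM against 458, 118, 177, 309 and 126 CPM (log2 difference −6.87 ± 0.56, adjusted p = 3.45e-07). Gm29100, opposite the mesenchymal factor gene Twist2, was at 0, 0, 3.26, 1.65 and 0 CPM against 42.6, 41, 129, 57.2 and 76.2 CPM (count ratio 70.4, 95% interval 23.8 to 344; adjusted p = 2.70e-06). Gm4876, opposite Tes, a LIM protein of focal adhesions, was at 9.41, 14.8, 6.52, 3.31 and 9.92 CPM against 426, 223, 131, 525 and 300.1 CPM (log2 difference −5.27 ± 0.43, adjusted p = 3.45e-07). With reads moved across, fold changes were −6.06 for Ereg, −3.02 for Baiap2l1, −5.82 for Tfap2a, −6.0 for Twist2 and −3.66 for Tes, with adjusted p at most 2.72e-06. Here too the moved reads are those of rows chosen for their differences, so the values are no separate support. The rows named Baiap2l1 and Twist2 were themselves not tested.

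Regulators of the mesenchymal state went mostly with the RAS tumors: 8 of 15 tested were higher there and 1 in PDGFB tumors (median −1.27). Twist1, a factor of mesenchyme, was at 0, 0, 0, 1.65 and 1.65 CPM in PDGFB tumors and 39.3, 19.7, 11.9, 22.3 and 40.4 CPM in RAS tumors (count ratio 41.3, 95% interval 11.1 to 347; adjusted p = 7.83e-05). Cebpb (opposite Tmem189) was at 7.84, 11.5, 8.16, 18.2 and 11.6 CPM against 32.7, 39.4, 35.7, 41.3 and 143 CPM (log2 difference −2.47 ± 0.46, adjusted p = 6.46e-04), and RAS tumor 5 stood far above the others. The YAP-related coactivator gene Wwtr1 and its partner Tead1 had fold changes of −2.25 and −2.4. Zeb1 (opposite Gm10125), often placed in the same group, was higher in PDGFB tumors at 95.7, 52.6, 84.8, 137 and 87.6 CPM against 11.5, 32.8, 40.8, 11.1 and 14 CPM (log2 difference 1.95 ± 0.37, adjusted p = 6.91e-04). Stat3 (opposite Stat5a) and Zeb2 (opposite Zeb2os and Gm27761) were not called (−0.46 and −0.27).

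In the TGF-β and BMP list 5 of 13 tested were higher in RAS tumors and 1 in PDGFB tumors (median −0.71). The share called was 46.2%, against 31.8% of all genes tested. Besides Grem1, Ltbp1, which stores latent TGF-β in the matrix, was at 1.57, 6.57, 0, 6.61 and 1.65 CPM against 42.6, 42.7, 57.8, 47.7 and 54.4 CPM (log2 difference −3.94 ± 0.48, adjusted p = 1.46e-05), and the ligand gene Tgfb1 had a fold change of −3.36. Bmp7 was the member called higher in PDGFB tumors (log2 difference 1.46 ± 0.55, adjusted p = 0.0497), with overlapping groups. Its call was lost without PDGFB tumor 2, 3, 4 or 5 or RAS tumor 1, 4 or 5 (adjusted p up to 0.116). The IGF list had 4 of 10 higher in RAS tumors and 0 in PDGFB tumors, led by the receptor Igf2r (within Airn's intron on the other strand), at 4.71, 13.1, 6.52, 6.61 and 8.27 CPM against 60.6, 55.8, 28.9, 49.3 and 54.4 CPM (log2 difference −2.75 ± 0.35, adjusted p = 1.98e-05). Igfbp4, an IGF-binding protein, was at 141, 128, 127, 167 and 48 CPM against 355, 492, 364, 237 and 1958 CPM (log2 difference −2.62 ± 0.51, adjusted p = 9.72e-04), with RAS tumor 5 far above the others.

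Genes of macrophages were higher in RAS tumors. Of 22 markers of macrophages and microglia 11 were tested and 10 were higher in RAS tumors, 0 in PDGFB tumors (median −1.65). Their summed level was 360 to 475 CPM in PDGFB tumors, 758 to 1255 CPM in RAS tumors and 322 to 338 CPM in normal brain, with no overlap between tumor groups. Lyz2, the lysozyme of myeloid cells, was at 31.4, 11.5, 13, 19.8 and 28.1 CPM against 154, 179, 163, 212 and 171 CPM (log2 difference −3.18 ± 0.33, adjusted p = 3.22e-06), and Fcgr3, an IgG receptor, at 6.27, 3.28, 6.52, 1.65 and 14.9 CPM against 18, 26.3, 25.5, 25.4 and 45.1 CPM (log2 difference −2.19 ± 0.45, adjusted p = 0.00126). The complement genes C1qa, C1qb and C1qc, made by microglia and macrophages, were the 3 of 7 tested complement genes called, all higher in RAS tumors. C1qb was at 17.3, 14.8, 8.16, 23.1 and 14.9 CPM against 34.4, 54.2, 56.1, 44.5 and 71.5 CPM (log2 difference −1.84 ± 0.30, adjusted p = 2.09e-04). Csf1r (opposite Hmgxb3), the growth factor receptor these cells depend on, differed least of the 10 (log2 difference −0.63 ± 0.16, adjusted p = 0.00596).

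The list of genes known from tumor-associated macrophages had 9 of 11 tested higher in RAS tumors and 1 in PDGFB tumors (median −1.72). Spp1, osteopontin (chromosome 5, 104435118 to 104441050), was at 18.8, 50.9, 13, 28.1 and 11.6 CPM in PDGFB tumors and 558, 210.1, 448, 326 and 722 CPM in RAS tumors (log2 difference −4.32 ± 0.45, adjusted p = 2.76e-06). Arg1, arginase, was at 0, 6.57, 0, 0 and 8.27 CPM against 24.6, 23, 28.9, 50.9 and 96.4 CPM (log2 difference −3.98 ± 0.69, adjusted p = 3.54e-04). Cd163, a scavenger receptor for hemoglobin and a macrophage gene, stood against the list: it was at 458, 774, 308, 425 and 405 CPM in PDGFB tumors and 249, 113, 195, 124 and 14 CPM in RAS tumors (log2 difference 1.68 ± 0.42, adjusted p = 0.00578). RAS tumor 5, with the most macrophage marker reads in sum, had the least of it. Spp1, Lgals3 and Fn1 (opposite Apol7d) of this list are also made by other cells. In the list of homeostatic microglia 2 of 4 tested were higher in RAS tumors, Cx3cr1 (opposite Gm33858; log2 difference −1.02 ± 0.27, adjusted p = 0.00827) and Olfml3 (log2 difference −0.92 ± 0.32, adjusted p = 0.0381). Both overlapped between groups, and Olfml3 lost its call without PDGFB tumor 1 or 5 or RAS tumor 1, 3 or 4 (adjusted p up to 0.0789).

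Several genes of antigen presentation were also higher in RAS tumors. For MHC class I, 4 of 8 tested were higher in RAS tumors and 0 in PDGFB tumors (median −1.57). H2-K1, a class I heavy chain, was at 12.5, 19.7, 13, 13.2 and 51.3 CPM against 99.9, 105, 49.3, 65.2 and 236 CPM (log2 difference −2.46 ± 0.47, adjusted p = 8.12e-04). PDGFB tumor 5 overlapped the lowest RAS tumor. B2m, the light chain, was at 69, 39.4, 47.3, 47.9 and 107 CPM against 316, 238, 159.7, 212 and 311 CPM (log2 difference −2.1 ± 0.27, adjusted p = 2.86e-05). For class II, the invariant chain gene Cd74 was at 1.57, 3.28, 1.63, 6.61 and 8.27 CPM against 31.1, 36.1, 34, 9.54 and 99.5 CPM (log2 difference −3.38 ± 0.62, adjusted p = 8.12e-04) and H2-Aa, an α chain, at 4.71, 1.64, 1.63, 0 and 8.27 CPM against 9.82, 32.8, 22.1, 9.54 and 42 CPM (log2 difference −2.88 ± 0.65, adjusted p = 0.00337). H2-DMa (opposite Brd2) was called higher in PDGFB tumors (log2 difference 0.89 ± 0.20, adjusted p = 0.00264), and its sign turned when reads were moved across (−0.16, adjusted p = 0.608). Erap1 (opposite Cast), a peptidase that trims class I peptides, had a fold change of −2.23, which was −0.62 with adjusted p = 0.0779 with reads moved. Because class I and II genes are made by macrophages as well as by tumor cells, the part of the myeloid marker sum in these differences was not tested.

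Other immune and signaling lists gave few calls. Of 8 tested interferon response genes 1 (12.5%) was higher in RAS tumors, Ifitm3 (log2 difference −1.68 ± 0.47, adjusted p = 0.0117), with overlap. Of 4 tested chemokine and interleukin genes, Il33, an alarmin, was higher in RAS tumors at 3.14, 16.4, 0, 3.31 and 9.92 CPM against 96.6, 13.1, 49.3, 122 and 23.3 CPM, where RAS tumor 2 lay within the PDGFB range (log2 difference −3.29 ± 0.63, adjusted p = 8.14e-04), and Il34 (opposite Gm15895 and Gm15894), a ligand of CSF1R, in PDGFB tumors (log2 difference 0.90 ± 0.33, adjusted p = 0.0482). The Il34 call was lost without any one of PDGFB tumors 1 to 5 or RAS tumors 1, 4 and 5 (adjusted p up to 0.158), and its sign turned with reads moved (−0.65, adjusted p = 0.0875). The neutrophil, T and NK cell, B cell and red blood cell lists had no member tested. Their summed levels stayed at 98.0, 11.6, 66.9 and 28.6 CPM or less in the tumors, and RAS tumor 5 gave the highest sum for neutrophil and B cell markers.

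**Figure D4:**
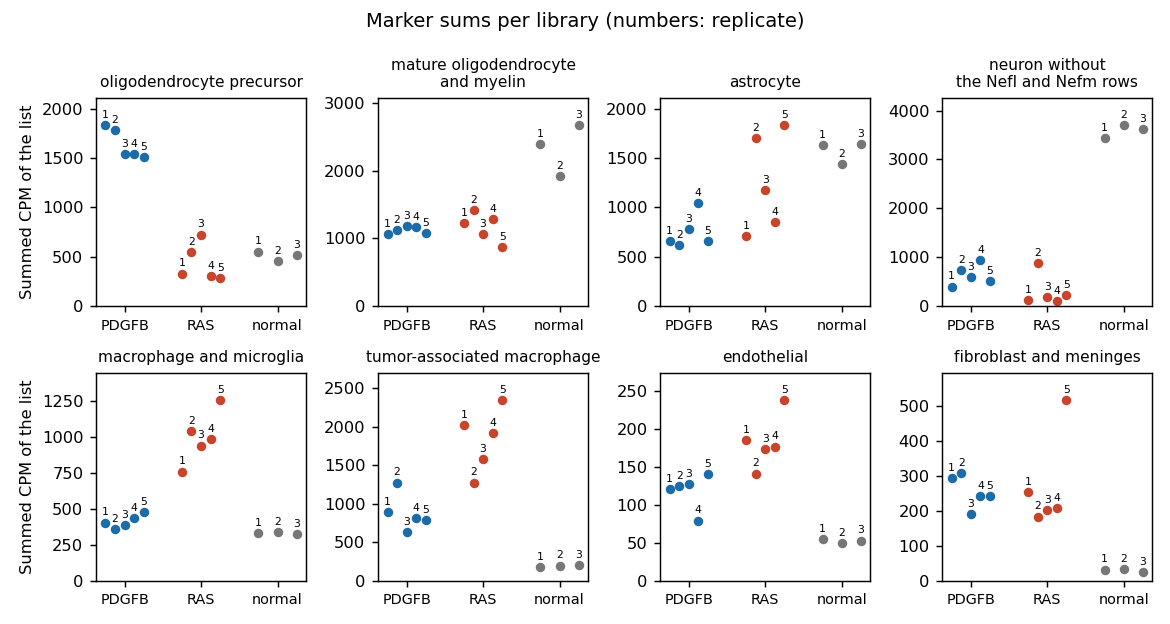
Summed CPM of 8 marker lists in each library, numbered by replicate. Precursor sums lie at 1510 to 1837 CPM in PDGFB and 283 to 724 CPM in RAS tumors, macrophage sums at 360 to 475 and 758 to 1255 CPM, and the sum of neuron markers without the Nefl and Nefm rows, left out after seeing the data, lies at 868 CPM in RAS tumor 2 and at 92.2 to 225 CPM in the other RAS tumors.

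Vessel and stroma markers were mostly too low to test. Plvap, an endothelial gene of leaky vessels, was at 1.57, 4.93, 1.63, 3.31 and 6.61 CPM in PDGFB tumors and 18, 9.85, 30.6, 14.3 and 28 CPM in RAS tumors (log2 difference −2.54 ± 0.52, adjusted p = 0.00165); it was 1 of 3 endothelial genes tested and the only one called, and 20 of the 23 listed were not tested. In the pericyte and smooth muscle list Rgs5 was higher in RAS tumors (log2 difference −2.82 ± 0.58, adjusted p = 0.0015) and Cspg4, which precursors share, in PDGFB tumors. Fibroblast markers had 4 of 5 higher in RAS tumors (Twist1, Col1a1, Col1a2 and Col3a1) and Pdgfra in PDGFB tumors. Their sum over 13 markers did not separate the groups: 191 to 309 CPM in PDGFB tumors, 184 to 254 CPM in RAS tumors 1 to 4 and 518 CPM in RAS tumor 5. Pdgfra, at the levels given above, made up most of that sum in each PDGFB tumor. The sum therefore does not describe the other fibroblast markers. Of 2 choroid plexus genes tested 0 were called.

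Cell division genes differed by less. Of 15 tested mitosis genes 5 were higher in PDGFB tumors, 0 in RAS tumors and 10 were not called (median 0.54), and of 17 DNA replication genes 5, 0 and 12 (median 0.60). The shares called, 33.3% and 29.4%, were near the 31.8% of all genes tested. On the PDGFB side the share of all genes was 15.4%. Cenpf, a kinetochore protein, was at 23.5, 8.21, 27.7, 13.2 and 31.4 CPM against 3.27, 3.28, 6.79, 3.18 and 7.78 CPM (log2 difference 1.94 ± 0.50, adjusted p = 0.00755), and Mki67, the antigen of dividing cells, at 69, 23, 70.1, 79.3 and 77.7 CPM against 14.7, 16.4, 22.1, 17.5 and 23.3 CPM (log2 difference 1.64 ± 0.32, adjusted p = 9.54e-04). For Mki67, PDGFB tumor 2 lay just below the highest RAS tumor. The kinesin gene Kif11 was called too (log2 difference 1.72 ± 0.59, adjusted p = 0.0344) but overlapped. It lost its call without PDGFB tumor 1, 3, 4 or 5 or RAS tumor 1 or 4 (adjusted p up to 0.0849). Of the replication genes, Lig1 (opposite Zswim9), the ligase of Okazaki fragments, was at 67.4, 34.5, 48.9, 46.3 and 43 CPM against 19.6, 18.1, 18.7, 11.1 and 6.22 CPM (log2 difference 1.6 ± 0.29, adjusted p = 5.94e-04), and the helicase subunit gene Mcm2 was called with overlap (log2 difference 1.47 ± 0.49, adjusted p = 0.0312), a call lost without RAS tumor 1, 2 or 4 (adjusted p up to 0.0714). Cdk1, Top2a, Ccnb1, Pcna and Mcm5 had fold changes of 0.53 to 0.72 and were not called. With any one of PDGFB tumors 1, 3, 4 and 5 or RAS tumors 1 and 4 left out, the mitosis count on the PDGFB side was 2 or 3 (of 13 to 15 tested), and the replication count was 1 to 3 (of 15 to 17 tested) when any tumor but PDGFB 2 was left out. Among D cyclins and CDKs, Cdkn1b, the inhibitor p27, was higher in PDGFB tumors (log2 difference 1.77 ± 0.46, adjusted p = 0.00772) and Cdk4 (opposite Tspan31) in RAS tumors (log2 difference −0.45 ± 0.13, adjusted p = 0.0104). The sign of Cdk4 turned with reads moved across (0.29, adjusted p = 0.385).

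Both viruses carry the p53 hairpin, and the list of the p53 pathway, which holds regulators of p53 as well as its targets, gave 4 of 9 tested higher in RAS tumors and 1 in PDGFB tumors (median −0.82). Mdm2, the ligase that degrades p53, was at 9.41, 8.21, 11.4, 1.65 and 6.61 CPM against 22.9, 14.8, 34, 22.3 and 40.4 CPM (log2 difference −1.93 ± 0.45, adjusted p = 0.00329), and Cdkn1a (opposite AC167363.2), the inhibitor p21, had a fold change of −0.82. The Cdkn1a call was lost without RAS tumor 4 or 5 (adjusted p up to 0.058) and with reads moved across (−0.18, adjusted p = 0.560). Ccng1 was called with overlap (log2 difference −1.14 ± 0.35, adjusted p = 0.0202) and lost without PDGFB tumor 4 (adjusted p = 0.0556). Without RAS tumor 4 the count on the RAS side was 2. With all libraries 55.6% of the members tested were called, against 31.8% of all genes tested. Zmat3 was called higher in PDGFB tumors (log2 difference 0.95 ± 0.30, adjusted p = 0.0224), a call lost without PDGFB tumor 1, 2 or 5 or RAS tumor 1, 3 or 4 (adjusted p up to 0.0613).

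Neural progenitor genes split. Of 13 tested, 4 were higher in PDGFB tumors and 4 in RAS tumors. The share called was 61.5%, against 31.8% of all genes tested. Fabp7, the fatty acid binder of radial glia, was at 176, 136, 109, 142 and 155 CPM in PDGFB tumors and 3.27, 64, 52.7, 19.1 and 10.9 CPM in RAS tumors (log2 difference 2.15 ± 0.47, adjusted p = 0.00232), and Sox2, the stem cell factor, had a fold change of 1.13. Nes, the progenitor filament, was on the RAS side at 98.8, 143, 109, 102 and 97.6 CPM against 234, 156, 153, 216 and 258 CPM (log2 difference −1.0 ± 0.22, adjusted p = 0.00263) and had no read in normal brain. Dlx1 (opposite Dlx1as), a factor of forebrain interneurons, varied most among RAS tumors: 170.2, 176, 304, 11.1 and 1480.4 CPM, against 7.84, 23, 19.6, 46.3 and 4.96 CPM in PDGFB tumors and 344, 351 and 350.4 CPM in normal brain (log2 difference −4.54 ± 0.87, adjusted p = 8.12e-04). RAS tumor 4 lay within the PDGFB range.

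Astrocyte markers as a group did not separate the tumors: 2 of 15 tested (13.3%) were called, a share below the background, and Gfap and Aqp4 had fold changes of 0.09 and 0.33. Gja1, the main gap junction protein (a connexin) of astrocytes, was at 1.57, 14.8, 1.63, 14.9 and 0 CPM in PDGFB tumors and 76.9, 67.3, 30.6, 62 and 63.8 CPM in RAS tumors (log2 difference −3.27 ± 0.52, adjusted p = 1.76e-04). RAS tumor 3 lay within the range of normal brain (54.5, 51 and 26.4 CPM), the other RAS tumors above it and the PDGFB tumors below it. Apoe, which macrophages also make, was at 187, 214, 230.0, 296 and 227 CPM against 413, 653, 863, 558 and 1451 CPM (log2 difference −1.9 ± 0.29, adjusted p = 1.17e-04). Without RAS tumor 2 the list had 3 members called higher in PDGFB tumors.

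Myelin genes split too: 4 of 13 tested were higher in PDGFB tumors and 3 in RAS tumors, and Mbp and Mobp were not called (fold changes of 0.08 and 0.30). Mobp was called higher in PDGFB tumors without RAS tumor 2 (adjusted p = 0.00364), which held 62.4 CPM of it against 10.9 or less in the other RAS tumors. Trf, the iron carrier transferrin, was at 32.9, 21.4, 31, 34.7 and 29.8 CPM against 406, 297, 231, 375 and 115 CPM (log2 difference −3.33 ± 0.30, adjusted p = 9.32e-07), against 86.9, 56.7 and 56.2 CPM in normal brain. Ndrg1 (opposite Gm17035 and Gm2895), also known as a hypoxia gene, was higher in RAS tumors (log2 difference −3.35 ± 0.68, adjusted p = 0.00134). Ugt8a, the enzyme of myelin galactolipids, was at 37.6, 21.4, 27.7, 18.2 and 9.92 CPM against 0, 8.21, 11.9, 3.18 and 1.56 CPM (log2 difference 2.08 ± 0.55, adjusted p = 0.00837), and Cldn11, the myelin claudin, was called with overlap (log2 difference 1.73 ± 0.58, adjusted p = 0.0305). With any one of PDGFB tumors 1, 2 and 4 or RAS tumors 1, 4 and 5 left out, Cldn11 lost its call (adjusted p up to 0.0708) and 1 or 2 members remained on the PDGFB side.

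Neuron markers depended on RAS tumor 2. Of 29 tested, 5 were higher in PDGFB tumors and 2 in RAS tumors with all libraries, and 17 were higher in PDGFB tumors without RAS tumor 2. The share called with all libraries was 24.1%, below the 31.8% of all genes tested. Apart from the neurofilament rows, the 30 other markers summed to 395 to 930 CPM in PDGFB tumors and to 92.2 to 225 CPM in RAS tumors 1, 3, 4 and 5. RAS tumor 2 held 868 CPM and normal brain 3431 to 3706 CPM. Gria2, an AMPA receptor subunit, was at 43.9, 115, 40.8, 94.2 and 79.4 CPM against 3.27, 23, 15.3, 1.59 and 7.78 CPM (log2 difference 2.75 ± 0.45, adjusted p = 2.42e-04), with no overlap.

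The row Nefm (opposite Nefl), one of the genes of the neurofilament, was called higher in RAS tumors together with Nefl, against the 5 other neuron markers called. It was at 154, 338, 338, 345 and 205 CPM in PDGFB tumors and 5911, 3468, 3831, 8196 and 3939 CPM in RAS tumors (log2 difference −4.3 ± 0.28, adjusted p = 3.27e-08; chromosome 14, 68082590 to 68124846), against 4365, 4218 and 3908 CPM in normal brain. Nefl (opposite Nefm), the partner on the other strand, was at 9.41, 23, 8.16, 14.9 and 3.31 CPM against 203, 129.7, 189, 305 and 286 CPM (log2 difference −4.34 ± 0.36, adjusted p = 4.89e-07), and at 136, 147 and 122 CPM in normal brain. RAS tumors were thus near or above the level of normal brain for both rows, including the 4 tumors whose other neuron markers summed to 225 CPM or less. Because each row lies opposite the other, the reads of the 2 genes cannot be told apart here.

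Metabolic and translation genes gave smaller differences. Of 27 ribosomal protein genes tested 14 were higher in RAS tumors and 0 in PDGFB tumors (median −0.89), led by Rpl38 at 15.7, 31.2, 16.3, 24.8 and 31.4 CPM against 34.4, 37.8, 42.5, 47.7 and 84 CPM (log2 difference −1.17 ± 0.32, adjusted p = 0.00921). The count was 25 without RAS tumor 2, 7 without PDGFB tumor 4 and 5 without RAS tumor 5. Rpl32 (opposite Cand2) overlapped between groups (log2 difference −1.16 ± 0.35, adjusted p = 0.0181) and lost its call without RAS tumor 5 (adjusted p = 0.060). In the hypoxia and glycolysis list 8 of 23 tested were higher in RAS tumors, led by Ndrg1 and the carbonic anhydrase gene Car9 (opposite Gm12454; log2 difference −2.39 ± 0.53, adjusted p = 0.00232). Adm, the vasodilator adrenomedullin, was higher in PDGFB tumors (log2 difference 1.53 ± 0.41, adjusted p = 0.00879). Of the 8 genes, 7 lie opposite an exon, and with reads moved across 4 were higher in RAS tumors. Oxidative phosphorylation genes gave 2 of 18 (11.1%), both higher in RAS tumors, among them Cox5b (log2 difference −0.94 ± 0.29, adjusted p = 0.0213), and the count was 4 without RAS tumor 2 or 4. The Cox5b call was lost with no filter (adjusted p = 0.117) or a looser one (adjusted p = 0.0648).

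Cholesterol synthesis genes gave 2 of 11 higher in PDGFB tumors and 1 in RAS tumors. Hmgcs1 (opposite Gm48342), an early enzyme of the pathway, was called higher in PDGFB tumors with overlap (log2 difference 0.93 ± 0.31, adjusted p = 0.0328). The Hmgcs1 call was lost without PDGFB tumor 4 or 5 or RAS tumor 1, 3, 4 or 5 (adjusted p up to 0.0962). Fdft1, squalene synthase, lies opposite the cathepsin gene Ctsb of the macrophage list and was higher in RAS tumors (log2 difference −1.55 ± 0.18, adjusted p = 1.07e-05). Guidance genes gave 2 of 14 higher in PDGFB tumors, Plxnb1 (opposite Gm7628; log2 difference 1.78 ± 0.48, adjusted p = 0.0086) and Sema3d (log2 difference 1.42 ± 0.48, adjusted p = 0.0313), and 3 in RAS tumors, Sema3f, Sema3a and the netrin receptor gene Unc5b (log2 difference −3.03 ± 0.63, adjusted p = 0.00147). Sema3d overlapped and lost its call without PDGFB tumor 4 or 5 or RAS tumor 2, 4 or 5 (adjusted p up to 0.103), and without RAS tumor 1 the 3 RAS-high guidance genes fell below the low-count filter and were not tested. WNT and Notch genes gave 1 of 8 and 1 of 4, both higher in RAS tumors with overlap: Wnt7b (opposite AU022754; log2 difference −1.38 ± 0.45, adjusted p = 0.0261) lost its call without PDGFB tumor 1 or 4 or RAS tumor 4 (adjusted p up to 0.104), and Numb (opposite Gm46367; log2 difference −1.14 ± 0.38, adjusted p = 0.0318) without PDGFB tumor 1, 3 or 5 or RAS tumor 1 or 3 (adjusted p up to 0.0853).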

How the data were processed

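RNA-seq libraries of polyadenylated RNA came from 5 mice per tumor group and 3 normal brains; groups and replicate numbers came from sample titles and tissue labels. Per the labels' protocols, RNA was isolated with Trizol and libraries made with a TruSeq RNA kit. STAR 2.7.9a, fastp 0.22.0 and the build GRCm38 are listed in the submitters' processing notes; the annotation and the strand setting of the count are not given in the sources used here. The deposited values were raw read counts per gene, with no normalization by the authors, for 55416 gene rows and 4 summary rows, which were dropped. Columns of no listed sample numbered 0.

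Symbols, positions and opposite exons came from GENCODE M21 (GRCm38), matched by identifier for 52135 rows; none of the other 3281 is named. The test was edgeR 4.0.16 under R 4.3.3: filterByExpr (minimum count 10, minimum total 15), composition (TMM) factors, then a two-sided quasi-likelihood fit of 3 group means over 13 libraries, with a call below 0.05 after Benjamini-Hochberg adjustment. CPM used the total of gene reads. A fold against no read takes 3 reads over the group as its floor; with 1 to 3 reads the count ratio has a 95% exact interval, covering counting error only. Fitted fold changes of such genes depend on the prior count and are no bound. The test was checked on simulated counts.

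The comparison, its 45 gene lists (951 entries, all matched) and the rules were chosen with earlier results of these data known. Named genes were the design genes with Pdgfra and Pdgfrb; per direction the 12 largest called differences with no overlap of CPM, at least 10 CPM in the higher group, no predicted symbol and no exon opposite; 6 such rows with at least 30 CPM opposite 1 coding gene; and up to 2 called members a direction per list. Some genes that these rules name are not reported here. Other members named in the account of a list, and the genes plotted, were picked after their values were seen. No list was tested as a set. No pair of replicates agreed within sampling noise (chi-square at least 2.51 per degree of freedom); each library is 1 sample. Alternatives were library totals, median-of-ratios factors, no filter or a looser one, DESeq2 1.42.0, limma-voom (limma 3.58.1), the 10 tumors alone, a replicate block, a minimum of 2-fold, an adjusted p under 0.01, rows with no opposite exon alone, reads moved to the opposite gene where exactly 1 coding gene lies there, and leaving out each of the 10 tumors. The neuron sum without its neurofilament rows was added after seeing the data.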

Additional observations from a re-analysis of the deposited data

Results flagged for a closer look

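A library was singled out where its gap to the nearest of the other 4 tumors of its group was large beside the range of the group. Over 382 pairs of a named gene and a tumor group this gave 35 values. The cutoff flags about 1 in 20 such groups by chance if values are normally distributed. It was applied to CPM without a log scale, so the chance rate here is not known. RAS tumor 5 gave 12 of the 35 values, and PDGFB tumor 3 and RAS tumor 4 gave 0. Of the 35 values, 6 lie in groups where no library held more than 2 reads of the gene, so that a difference of 1 or 2 reads makes up the whole range; the other 29 do not rest on so few reads. RAS tumor 5 stood highest with 99.5 CPM of Col3a1 against 19.7 to 34.4, 1958 CPM of Igfbp4 against 237 to 492, 84 CPM of Rpl38 against 34.4 to 47.7, 96.4 CPM of Vcan against 24.6 to 38.2, 211 CPM of Plau against 39.4 to 84.3 and 68.4 CPM of Itga5 against 21.3 to 27.8 in the others. RAS tumor 5 stood highest with 49.8 CPM of Acta2 against 1.64 to 9.82, 1480.4 CPM of Dlx1 against 11.1 to 304, 143 CPM of Cebpb against 32.7 to 41.3, 383 CPM of Lmna against 32.8 to 80.2, 286 CPM of Tpm2 against 35.7 to 93.8 and 292 CPM of Rpl32 against 70.4 to 107 in the others. RAS tumor 2 stood highest with 246 CPM of Gfap against 20.4 to 77.8, 36.1 CPM of Aqp4 against 4.67 to 11.1 and 62.4 CPM of Mobp against 0 to 10.9 in the others. RAS tumor 2 stood lowest with 19.7 CPM of Mapk3 against 34 to 37.3 in the others. RAS tumor 3 stood highest with 25.5 CPM of Cacng4 against 1.59 to 8.21 in the others. RAS tumor 1 stood highest with 60.6 CPM of Rasa1 against 18.7 to 27.2 and 62.2 CPM of Nras against 17 to 26.3 in the others.

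PDGFB tumor 2 stood highest with 143 CPM of Nes against 97.6 to 109, 269 CPM of Col11a1 against 66.1 to 94.6, 78.8 CPM of Pdgfa against 25.1 to 38 and 314 CPM of Itgb1 against 232 to 248 in the others. PDGFB tumor 2 stood lowest with 23 CPM of Mki67 against 69 to 79.3 in the others. PDGFB tumor 1 stood highest with 303 CPM of H2-DMa against 215 to 236 in the others. PDGFB tumor 4 stood highest with 8.26 CPM of Col5a2 against 0 to 1.65 and 79.3 CPM of Erap1 against 59.6 to 64.1 in the others. PDGFB tumor 5 stood highest with 51.3 CPM of H2-K1 against 12.5 to 19.7 and 14.9 CPM of Col1a2 against 1.64 to 3.26 in the others. The 6 values from few reads were 1.64 CPM of Cnn2 and of Angptl2 in PDGFB tumor 2, 1.65 CPM of Crabp1 in PDGFB tumor 4, 1.65 CPM of Sema3f in PDGFB tumor 5 and 3.14 CPM of Gm26688 in PDGFB tumor 1, each against 0 in the others, and 1.57 CPM of Trp53 in PDGFB tumor 1 against 3.26 to 3.31.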

How the results depend on the processing

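Counts of calls (1193 higher in PDGFB, 1263 higher in RAS tumors) kept within 1.5 times under median-of-ratios factors, library totals, no or a looser filter, DESeq2, limma-voom, the 10 tumors alone, the replicate block and reads moved across. They were 228 and 377 with a minimum of 2-fold, 647 and 790 at an adjusted p under 0.01, and 426 and 503 in rows with no opposite exon alone, where fewer genes were tested. Rows with no opposite exon (393 and 533) gave 649 and 821 with no filter, and 227 on the PDGFB side with the 10 tumors alone. Without 1 tumor library, calls ranged from 919 to 1542 and from 1069 to 1502, both highest without RAS tumor 2. The replicate block over the 10 tumors gave 815 and 890 calls, and 215 and 339 in rows with no opposite exon. Same-numbered tumors correlated at −0.127 to 0.138 in their deviations, and so few values cannot settle whether the numbers pair the tumors. The signs of 3 genes turned with reads moved across, those of Cdk4 (0.29), H2-DMa (−0.16) and Il34 (−0.65). Of 154 called genes named, 128 kept the call under each alternative in which they were tested and 26 lost it in at least 1. This gene by gene check left out the minimum of 2-fold and the adjusted p under 0.01, which lower the number of calls. Apart from leaving out a library, calls were lost with library totals for Dusp6, Numb, Spred1 and Olfml3, with no filter for Cox5b, Dusp6, Cdk4, Cdkn1a, Csf1r, Olfml3 and Il34, and with a looser filter for the same genes except Csf1r. They were lost with DESeq2 for Il34, with limma-voom for Numb and Fosl2, with the 10 tumors alone for Sox10, Hmgcs1, Bmp7 and Il34, under the replicate block for Dusp6, Numb, Itga1, Hmgcs1, Wnt7b, Sema3d and Il34, in rows with no opposite exon alone for Olfml3, and with reads moved across for Numb, Erap1 and Cdkn1a beside those whose sign turned. Calls were gained with reads moved across for Sox8, Spry1 and Tagln, with limma-voom for Etv1 and Matn4, with no filter for Matn4, with the 10 tumors alone for Spry4, and without 1 library for Etv1, Sox8, Spry4, Pcna, Matn4 and Mobp. Counts of the myelin, axon guidance, Notch, cholesterol, astrocyte, AP-1 and MHC class II lists turned in balance in 4, 3, 2, 2, 1, 1 and 1 of 20 alternatives. With 588691 to 643055 counted reads per tumor, a gene at 1 to 3 reads in a group has a fold of wide interval, and 7722 of 55416 rows could be tested.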
